A study of Mus musculus with 18 samples.

Results

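Potassium channel genes were followed through 3 groups of sorted neurons of the mouse cortex. The members are the genes of the count table whose symbol starts with Kcn followed by a letter and by a letter or digit, 97 of 24015 genes. They comprise 67 pore-forming alpha subunit genes, 10 genes of modifier alpha subunits that do not conduct on their own, 16 auxiliary subunit genes and 4 others: the RNA genes Kcnq1ot1, Kcnd3os and Kcnmb4os1, and Kcnrg. The groups were, all at postnatal day 5, Tbr1 null layer 6 neurons (genotype label "Tbr1 Layer 6 Null", called null here), wild-type (WT) layer 5 neurons and WT layer 6 neurons, with 4 libraries each. The study also took ChIP-seq samples, which are not analysed here, and its title asks how the dose of Tbr1 after birth shapes the connections of layer 6. In every group tdTomato-positive cells were sorted by flow cytometry from dissociated cortex, about 25000 per sample. Neither the driver of tdTomato nor that of the null allele is named in the sources used here, the null is called constitutive in the series design, and nothing says that replicates came from separate animals. P-values therefore measure only the spread between these libraries, which may be technical.

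Potassium channels let potassium leave the cell and so set the resting potential, repolarise action potentials and limit repetitive firing. Voltage-gated channels are tetramers of alpha subunits of the Kv families, inward rectifiers (Kcnj) and the double-pored leak channels (Kcnk) act near rest, and the Kcnn, Kcnma and Kcnt channels respond to calcium or sodium ions. In cortical neurons Kv4 channels carry the fast transient A-type current of dendrites and Kcnq channels the M-current, a slow brake on firing. TBR1, a transcription factor with a T-box DNA-binding domain, is known from the deep layers of the cortex.

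Library totals ran from 27465597 to 54899002 counts. Levels are CPM, counts brought to a common library size with the trimmed mean of M values (TMM) over the 12 libraries, and they compare a gene between libraries, not genes with each other. Tbr1 had 91.6 to 97.4 CPM in null layer 6, 40.2 to 45.7 CPM in WT layer 5 and 169 to 182 CPM in WT layer 6 libraries. Its RNA was thus lower in the libraries labelled null than in WT layer 6 (log2 fold change -0.89, edgeR adjusted p = 8.53e-09), but it was not absent there and stood above WT layer 5. The deleted part of the gene is not named in the labels, so these counts do not settle whether the gene was inactive, and null is used here as the label only. The 8 layer 6 corticothalamic markers summed to 554 to 617 CPM in null layer 6, 432 to 445 CPM in WT layer 5 and 822 to 906 CPM in WT layer 6. The 9 layer 5 subcerebral markers summed to 806 to 871 CPM in null layer 6, 360 to 368 CPM in WT layer 5 and 647 to 674 CPM in WT layer 6. Of these 9 genes, 7 were lower in WT layer 5 than in WT layer 6, which goes against the layer 5 label for these genes. Libraries were placed in pairs. In both layer 6 groups these were 1 with 2 and 3 with 4, by a digit that their label codes share. In layer 5 they were 1 with 3 and 2 with 4, chosen because their counts were closest. The median absolute log2 difference over genes was 0.0616 to 0.0861 within layer 6 pairs and 0.102 to 0.122 across them. In layer 5 it was 0.0564 and 0.0593 within pairs and 0.0829 to 0.0863 across them, an order that follows from how the pairs were chosen. In layer 5 each pair spans both of its sequencing batches. Between null and WT layer 6 the astrocyte list of 12 genes had 4 higher and 3 lower genes, with sums of 1085 to 1159 CPM in null and 916 to 1050 CPM in WT layer 6. Of the oligodendrocyte, microglia and vascular lists 2 genes were higher and 5 lower.

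Most of the family was detected in these libraries. Of the 97 members, 76 had at least 10 counts in every library and 11 reached 10 counts in none, among them Kcnk15, Kcnk16 and Kcnmb3 with no count at all. Differences were tested with the quasi-likelihood test of edgeR over all genes and called at a Benjamini-Hochberg adjusted p under 0.05.

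In Tbr1 null layer 6 the ether-à-go-go gene Kcnh1, the modifier genes Kcnv1 and Kcnf1 and the auxiliary gene Kcnip2 were lower than in WT layer 6. The ERG gene Kcnh7, the sodium-activated channel gene Kcnt2 and the A-type channel gene Kcnd2 were higher. Between these groups 82 members passed the filter on low counts, 15 were called higher in null, 13 were called lower and 54 were not called. That is 34.1% of the members tested, where 14.2% of all 14588 genes passed that limit, 7.31% higher and 6.86% lower. Libraries of the groups did not overlap for 33 of the 82, beside 19.9% of all genes. The changes were small: the median absolute log2 fold change was 0.209 over the members tested and 0.087 over all genes, and the signed medians were 0.018 and 0.0. Only 1 member was called and over 2-fold higher, and 3 were called and over 2-fold lower, where 1.34% of all genes tested passed both limits. With paired libraries summed, 2 against 2, 7 of 85 members were called, beside 3.15% of all genes in that fit. When the pair entered as a random block in limma, 17 of 82 were called, beside 8.75% of all genes. All of those were among the 28, with the same sign. The 7 called with summed pairs are the 7 named first, and they were called in every one of the 21 other settings tried. Each library is a pool of cells, so fewer cells of a type and less RNA per cell cannot be told apart.

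**Figure D1:**
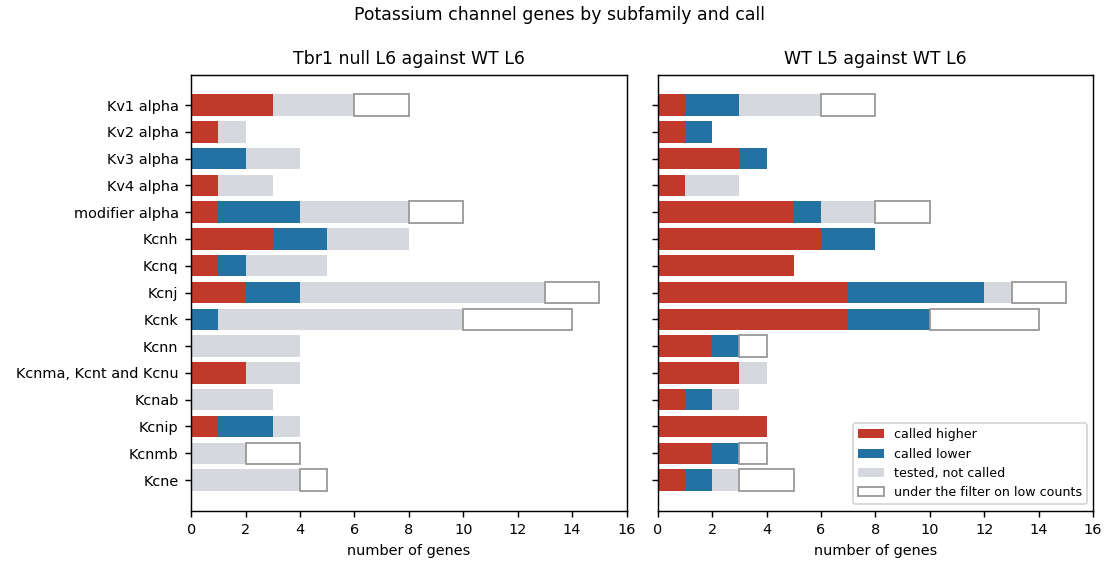
Number of potassium channel genes by subfamily (rows) that were called higher (red), called lower (blue), tested and not called (grey) or under the filter on low counts (white), in Tbr1 null layer 6 against WT layer 6 (left) and in WT layer 5 against WT layer 6 (right). In the left panel 3 Kv1 genes are higher and none lower, and the Kcnn, Kcnab, Kcnmb and Kcne rows hold no call. In the right panel all 5 Kcnq and all 4 Kcnip genes are higher. Of all genes tested 14.2% were called in the left comparison and 85.5% in the right.

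The Kcnh genes encode channels of the ether-à-go-go group, which open with depolarisation and shape firing threshold and repolarisation. Of 8 Kcnh genes tested, 3 were higher and 2 lower in null layer 6. Of all genes tested 14.2% were called, 7.31% higher and 6.86% lower. These shares stand beside the counts of every subfamily in this comparison. Kcnh1, an ether-à-go-go gene, had 3.53, 3.14, 3.24 and 2.77 CPM in null layer 6, 52.9, 50.6, 51.7 and 51.5 CPM in WT layer 5 and 7.36, 8.45, 9.92 and 10.6 CPM in WT layer 6 libraries. All null libraries were below all WT layer 6 libraries, and the layer 5 libraries stood far above both. The log2 fold change of null over WT layer 6 was -1.52 ± 0.13 (SE), a 2.86-fold lower level (edgeR adjusted p = 4.48e-06). Kcnh7, of the ERG branch, had 36.3, 36.98, 33.1 and 32.1 CPM in null layer 6, 49.2, 48.7, 49.3 and 48.9 CPM in WT layer 5 and 20.99, 22.8, 22.9 and 21.1 CPM in WT layer 6 libraries. The null libraries thus lay between both WT groups without touching either, at a log2 fold change of 0.66 ± 0.058 over WT layer 6 (adjusted p = 6.43e-06). The other ERG genes were higher too: Kcnh2 averaged 13.8 ± 1.195 CPM in null and 11.3 ± 0.266 CPM in WT layer 6 (SD, n = 4 each; adjusted p = 0.0167, edgeR). Kcnh6, a gene of low level, averaged 0.703 ± 0.2203 CPM in null and 0.274 ± 0.0510 CPM in WT layer 6 (SD, n = 4 each; edgeR adjusted p = 0.0127). The call of Kcnh2 was lost in 7 of 21 other settings and that of Kcnh6 in 5 of 20, both with summed pairs among them. Of the ELK branch, Kcnh3 averaged 28.3 ± 1.15 CPM in null and 32.8 ± 1.51 CPM in WT layer 6 (edgeR adjusted p = 0.0117). Its call was lost in 4 of 21 other settings, summed pairs among them. The remaining Kcnh genes, Kcnh4, Kcnh5 and Kcnh8, were not called.

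Modifier subunits join Kv2 alpha subunits and change their gating. Of 8 tested, 3 were lower and 1 higher in null layer 6. Kcnv1 had 21.6, 18.2, 15.9 and 16.4 CPM in null layer 6, 25.4, 26.96, 26.97 and 27.8 CPM in WT layer 5 and 29.2, 29.2, 30.6 and 28.6 CPM in WT layer 6 libraries. Its null libraries were the lowest of all 12, with a log2 fold change of -0.70 ± 0.082 against WT layer 6 (adjusted p = 6.81e-05). Kcnf1 had 19.4, 18.1, 19.8 and 21.6 CPM in null layer 6, 52.7, 47.3, 54.2 and 51.9 CPM in WT layer 5 and 26.6, 26.4, 26.0 and 26.2 CPM in WT layer 6 libraries. The 3 groups did not overlap, and the log2 fold change of null over WT layer 6 was -0.42 ± 0.056 (adjusted p = 0.000232). Kcng1 averaged 1.26 ± 0.285 CPM in null and 2.61 ± 0.377 CPM in WT layer 6 (SD, n = 4 each), a 2.05-fold lower level (edgeR adjusted p = 0.00238), and lost its call with summed pairs. Kcns3 moved the other way, at 5.63, 6.68, 5.01 and 5.19 CPM in null and 3.47, 3.61, 3.16 and 3.35 CPM in WT layer 6 libraries, with no overlap and a log2 fold change of 0.73 ± 0.12 (adjusted p = 0.000881). It too lost its call with summed pairs. Of the Kv2 partners themselves, Kcnb2 averaged 22.9 ± 0.806 CPM in null and 19.9 ± 0.892 CPM in WT layer 6 (n = 4 each; edgeR adjusted p = 0.0187), a call lost in 7 of 21 other settings.

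Genes of the Kv4 channel complex changed in both directions. Kcnd2, an alpha subunit of the dendritic A-type current, had 93.3, 88.3, 79.5 and 82.5 CPM in null layer 6, 71.9, 75.8, 69.3 and 77.6 CPM in WT layer 5 and 63.4, 63.1, 66.9 and 63.2 CPM in WT layer 6 libraries. Every null library was above every WT library of either layer, and the log2 fold change over WT layer 6 was 0.42 ± 0.049 (adjusted p = 6.01e-05). The other Kv4 genes, Kcnd1 and Kcnd3, were not called, Kcnd3 with 68.9 ± 4.01 CPM in null and 66.3 ± 4.23 CPM in WT layer 6 (SD, n = 4 each). Of the 4 Kcnip genes, whose calcium-binding products bind Kv4 channels and alter their gating and surface level, 1 was higher and 2 were lower. Kcnip2 had 17.8, 16.3, 19.4 and 22.3 CPM in null layer 6, 80.04, 81.8, 77.1 and 80.1 CPM in WT layer 5 and 29.6, 29.9, 27.6 and 29.4 CPM in WT layer 6 libraries. The groups stood apart, null lowest and layer 5 highest, and the log2 fold change of null over WT layer 6 was -0.62 ± 0.080 (adjusted p = 0.000159). Kcnip4 averaged 3.65 ± 0.327 CPM in null and 5.08 ± 0.623 CPM in WT layer 6 (edgeR adjusted p = 0.0196), a call lost in 8 of 21 other settings. Kcnip1 averaged 27.7 ± 2.14 CPM in null and 21.6 ± 1.19 CPM in WT layer 6 (edgeR adjusted p = 0.00188), a call lost with summed pairs. Outside the family, Dpp10, a transmembrane partner of Kv4 channels, averaged 86.4 ± 5.05 CPM in null and 58.3 ± 1.53 CPM in WT layer 6 (SD, n = 4 each), a log2 fold change of 0.57 ± 0.044 (edgeR adjusted p = 1.85e-06). Its relative Dpp6 was 1.14-fold higher (edgeR adjusted p = 0.00489), a call lost with summed pairs.

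**Figure D2:**
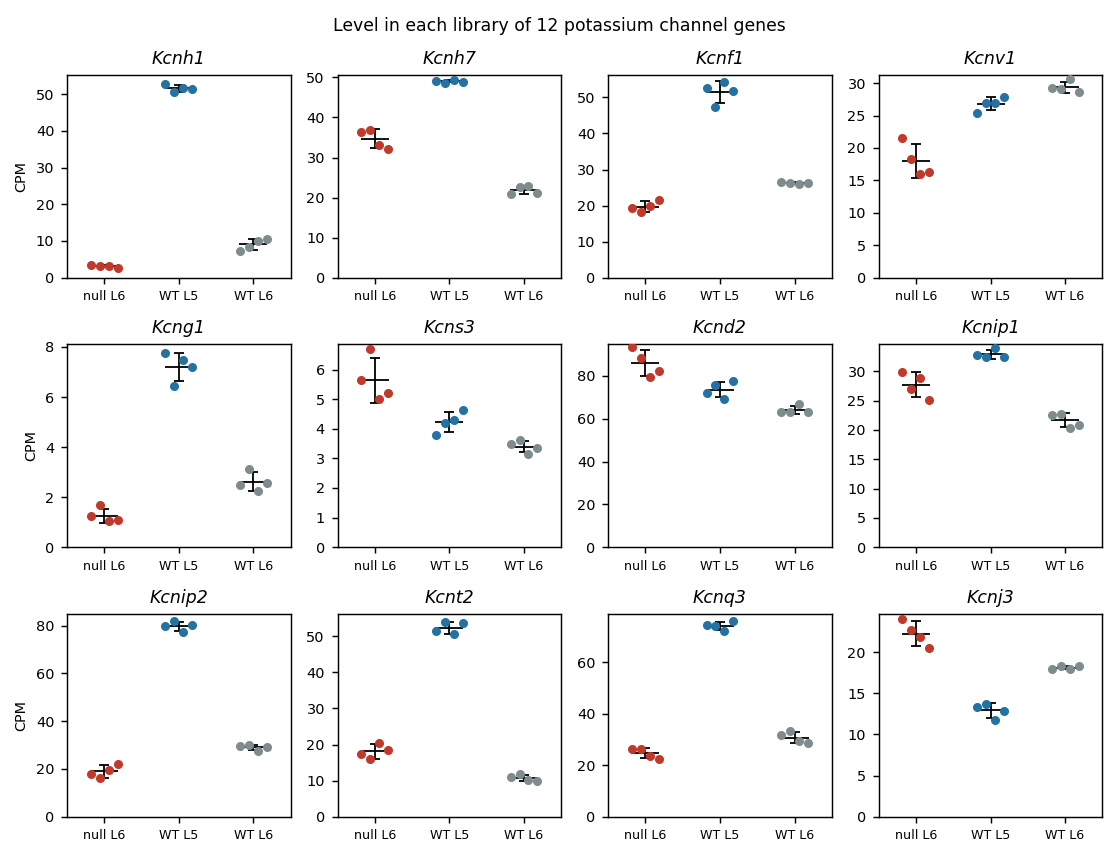
Level of 12 potassium channel genes in CPM (vertical axes, from 0) in each of the 4 libraries (points) of Tbr1 null layer 6, WT layer 5 and WT layer 6; bars are the mean and SD. Kcnh1, Kcnf1, Kcnip2, Kcnq3 and Kcng1 are lowest in null and highest in WT layer 5, Kcnh7, Kcnt2 and Kcnip1 have null between the WT groups, and Kcnd2, Kcns3 and Kcnj3 are highest in null.

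TBR1 binds DNA through its T-box, for which GGTGTGA is a core sequence, so the promoters of the family were searched for these letters on both strands (TCACACC on the other), and no other motif was searched. RefSeq promoter windows, 250 bases before to 50 after a start site on build GRCm38.p6, were at hand for 71 members (96 windows), of which 6 windows held the motif (6.25%), beside 3.98% of all 32851 windows. For 19 of the 28 members called between null and WT layer 6 there were 27 windows, and 1 held it, that of Kcnf1, 71 bases before the start site. The windows of Kcnh1 (chr1:192190527-192190826, plus strand), Kcnf1 (chr12:17176839-17177138, minus strand) and Kcnd2 (chr6:21215096-21215395, plus strand), picked after their values were seen, are shown as those of a member lower in null, a lower member whose window holds the motif and a member higher in null. The motif is in capitals.
Kcnh1: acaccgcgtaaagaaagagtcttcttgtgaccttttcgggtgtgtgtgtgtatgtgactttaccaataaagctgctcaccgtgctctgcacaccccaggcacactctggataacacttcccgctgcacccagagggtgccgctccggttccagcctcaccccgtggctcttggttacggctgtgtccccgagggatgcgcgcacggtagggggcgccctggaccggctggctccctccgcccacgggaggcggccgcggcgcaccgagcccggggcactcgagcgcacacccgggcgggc
Kcnf1: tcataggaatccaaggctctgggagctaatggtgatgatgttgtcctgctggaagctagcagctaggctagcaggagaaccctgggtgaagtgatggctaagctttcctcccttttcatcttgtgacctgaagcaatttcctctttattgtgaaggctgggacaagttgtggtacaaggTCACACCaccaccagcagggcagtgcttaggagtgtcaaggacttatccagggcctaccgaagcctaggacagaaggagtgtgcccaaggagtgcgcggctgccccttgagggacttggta
Kcnd2: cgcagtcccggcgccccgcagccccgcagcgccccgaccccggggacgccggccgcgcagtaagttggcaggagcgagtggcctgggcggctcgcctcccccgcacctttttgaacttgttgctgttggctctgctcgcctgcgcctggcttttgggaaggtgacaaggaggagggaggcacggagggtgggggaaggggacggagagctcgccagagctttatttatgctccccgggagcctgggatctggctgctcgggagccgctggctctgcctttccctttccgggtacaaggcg
The windows of Kcnh1 and Kcnd2 hold 66.0% and 68.7% G and C, that of Kcnf1 53.0%. A match is a stretch of letters, not a binding site.

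Kv1 channels sit on axons and at the axon initial segment and hold back firing. Of 6 Kv1 genes tested 3 were higher in null layer 6 and 0 lower, beside 7.31% higher and 6.86% lower of all genes. Kcna1 had 14.4, 12.97, 11.98 and 13.6 CPM in null and 10.03, 9.94, 9.66 and 10.3 CPM in WT layer 6 libraries, with no overlap and a log2 fold change of 0.41 ± 0.071 (adjusted p = 0.00168). Kcna2, its usual partner in axonal channels, averaged 28.5 ± 1.81 CPM in null and 24.2 ± 0.849 CPM in WT layer 6 (SD, n = 4 each; edgeR adjusted p = 0.0101). Kcna5 averaged 2.36 ± 0.649 CPM in null and 1.18 ± 0.317 CPM in WT layer 6 (SD, n = 4 each; edgeR adjusted p = 0.0195). All 3 calls were lost with summed pairs, that of Kcna2 in 3 and that of Kcna5 in 5 of 21 other settings. Cntn2 and Cntnap2, whose products help gather Kv1 channels on axons, were lower in null, at log2 fold changes of -0.52 ± 0.030 and -0.26 ± 0.035 (edgeR adjusted p = 1.39e-07 and 0.000196). Cntnap2 lost its call with summed pairs. Of the 30 partner genes of potassium channels tested, only Cntn2 and Cntnap2 were lower and 8 were higher. These 2 genes thus do not stand for the other partners.

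Kv3 channels allow fast spiking, and 2 of 4 Kv3 genes were lower in null layer 6. Kcnc2 averaged 14.6 ± 0.428 CPM in null and 17.8 ± 1.104 CPM in WT layer 6 (SD, n = 4 each; edgeR adjusted p = 0.00486), with no overlap, and lost its call only with summed pairs. Kcnc4 averaged 3.303 ± 0.7301 CPM in null and 4.95 ± 0.8099 CPM in WT layer 6 (edgeR adjusted p = 0.0357), a call lost in 9 of 21 other settings. Interneuron markers, a class of cells known for Kv3 channels, were counted beside this: of 9 tested 1 was higher and 4 were lower in null, and the list of 10 summed to 339 to 347 CPM in null and 359 to 379 CPM in WT layer 6, with Pvalb at or near 0. Their part in the result was not tested.

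Among the Kcnq genes of the M-current, 1 of 5 was lower and 1 higher. Kcnq3 had 26.2, 26.3, 23.6 and 22.4 CPM in null and 31.7, 33.1, 29.6 and 28.6 CPM in WT layer 6 libraries, with a log2 fold change of -0.32 ± 0.065 (adjusted p = 0.00521). The groups did not overlap, but the call was lost with summed pairs and against WT layer 6 replicates 3 and 4 alone. Kcnq5 was 1.09-fold higher in null (edgeR adjusted p = 0.0285), a call lost in 13 of 21 other settings.

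The sodium-activated channel genes were both higher in null layer 6. Kcnt2 had 17.3, 15.9, 20.6 and 18.6 CPM in null layer 6, 51.5, 53.9, 50.5 and 53.7 CPM in WT layer 5 and 10.98, 11.8, 10.3 and 9.94 CPM in WT layer 6 libraries. The null libraries lay above all WT layer 6 and below all WT layer 5 libraries, at a log2 fold change of 0.75 ± 0.085 over WT layer 6 (adjusted p = 4.90e-05). Kcnt1 averaged 9.18 ± 0.245 CPM in null and 6.71 ± 1.46 CPM in WT layer 6 (SD, n = 4 each; edgeR adjusted p = 0.0289), a call lost in 11 of 21 other settings. Kcnma1, the large-conductance calcium-activated channel gene, was not called, with 38.4 ± 0.798 CPM in null and 38.4 ± 1.38 CPM in WT layer 6 (SD, n = 4 each).

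Inward rectifiers gave 2 higher and 2 lower genes of 13 tested. Kcnj11 and Abcc8 encode the pore and the sulfonylurea receptor of the ATP-sensitive channel, which ties excitability to metabolism. Kcnj11 had 25.4, 25.1, 24.4 and 25.2 CPM in null and 21.6, 21.97, 19.98 and 19.3 CPM in WT layer 6 libraries, with no overlap and a log2 fold change of 0.27 ± 0.053 (adjusted p = 0.00342). Abcc8, from the list of partners, averaged 29.4 ± 2.27 CPM in null and 20.7 ± 1.05 CPM in WT layer 6 (SD, n = 4 each), a log2 fold change of 0.51 ± 0.063 (adjusted p = 0.000118). Of the channels opened by G proteins, Kcnj3 was higher, at 24.1, 22.7, 21.8 and 20.5 CPM in null and 17.9, 18.4, 17.97 and 18.3 CPM in WT layer 6 libraries (log2 fold change 0.30 ± 0.057, edgeR adjusted p = 0.00318). Kcnj5, another subunit of that group, was lower, with 0.525 ± 0.195 CPM in null and 1.26 ± 0.240 CPM in WT layer 6 (SD, n = 4 each; adjusted p = 0.0101). Kcnj4, a strong inward rectifier, was lower too, with 3.75 ± 0.417 CPM in null and 5.11 ± 0.355 CPM in WT layer 6 (adjusted p = 0.0180). Of these 4 Kcnj genes none kept its call with summed pairs, and Abcc8 kept its own in all settings. Kcnj4 lost its call in 8 of 21 other settings and Kcnj5 in 3 of 20. Of 10 leak channel genes, Kcnk3 was 1.28-fold lower (edgeR adjusted p = 0.0386), a call lost in 13 of 21 other settings. By edgeR, none of the 4 Kcnn genes, 3 Kcnab genes, 2 Kcnmb genes or 4 Kcne genes tested was called, with 3 of these 13 at an unadjusted p under 0.05. DESeq2 and limma called none of them, while Kcnmb4, Kcnn1, Kcnn3, Kcnab1, Kcne1l and Kcne2 were each called in 1 or 2 of the other edgeR settings.

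**Figure D3:**
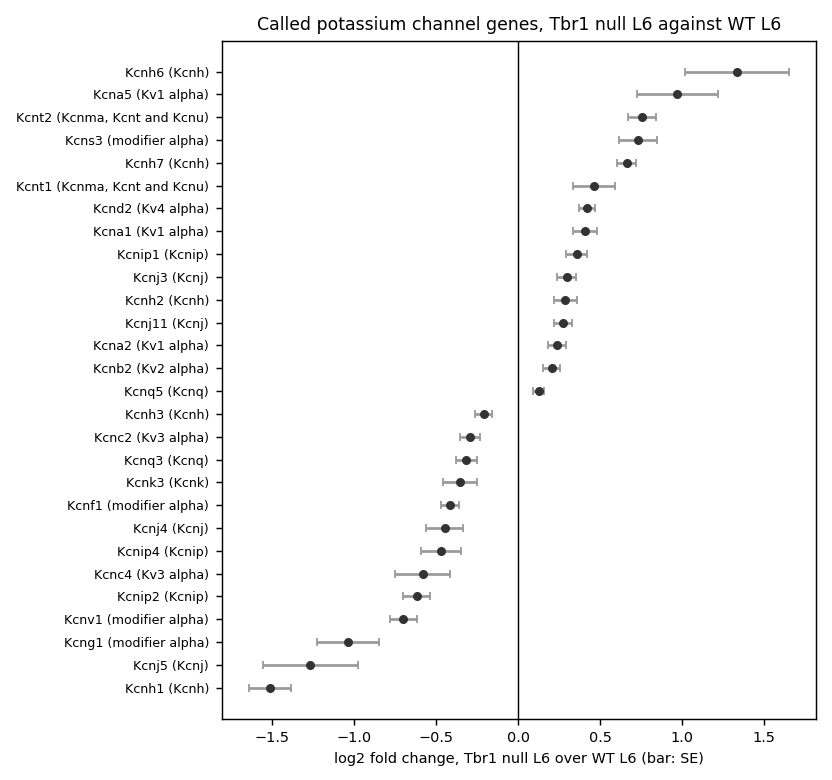
Log2 fold change of Tbr1 null layer 6 over WT layer 6 (horizontal axis; points, with the SE as bars) of the 28 potassium channel genes called, with their subfamily in brackets. Kcnh1 has the lowest value, -1.52, and Kcnh6 the highest, 1.34, and most of the others lie within 1 unit of 0.

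Of the 33 partner genes listed (auxiliary, anchoring and regulatory proteins of potassium channels), 30 were tested between null and WT layer 6, 8 were higher and 2 lower. That is 33.3% called, beside 14.2% of all genes, 7.31% higher and 6.86% lower. Besides those named above, Cntn1, an axonal adhesion molecule, was higher at a log2 fold change of 0.19 ± 0.030 (edgeR adjusted p = 0.000904), a call lost with summed pairs. The median log2 fold change of the partners tested was 0.073.

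WT layer 5 differed from WT layer 6 in most of the family. The M-current genes of the Kcnq group, the Kcnip genes, most Kcnh genes and the G-protein-gated channel gene Kcnj6 were higher in layer 5, and the leak channel gene Kcnk1 and the ATP-sensitive channel gene Kcnj11 were lower. Of 81 members tested, 49 were called higher in layer 5, 20 lower and 12 not called, or 85.2% called, where 85.5% of all 14927 genes passed that limit, 42.2% higher and 43.4% lower. Libraries of the groups did not overlap for 67 of the 81, beside 81.2% of all genes. The share of members called is thus at the background, and their balance is not: the median log2 fold change was 0.538 over the members tested and -0.01 over all genes. Over 2-fold, 30 members were higher and 4 lower, where 27.6% of all genes tested passed that limit in either direction. Layer 5 and layer 6 libraries also differ in sequencing batch, so layer and batch cannot be told apart. With layer 5 libraries of batch B alone 64 of 84 members were called, beside 80.3% of all genes, and with batch C alone 64 of 83, beside 79.6%.

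Markers of other cells moved with this comparison. Of 12 astrocyte markers 11 were higher and 1 lower in layer 5, and their sum was 5601 to 5618 CPM in WT layer 5 and 916 to 1050 CPM in WT layer 6. All 10 oligodendrocyte lineage markers were higher, with sums of 1117 to 1128 CPM in WT layer 5 and 260 to 273 CPM in WT layer 6. All 9 microglia markers were higher, with sums of 294 to 305 CPM in WT layer 5 and 89.8 to 102 CPM in WT layer 6, and all 9 vascular markers, with 774 to 795 CPM in WT layer 5 and 343 to 349 CPM in WT layer 6. Of the astrocyte list S100b, and of the oligodendrocyte list Mag and Mog, averaged under 1 CPM in WT layer 6. The 8 neuronal markers summed to 5296 to 5327 CPM in WT layer 5 and 6859 to 7177 CPM in WT layer 6. Of these 8 genes 3 were higher and 4 lower in layer 5, so the lower sum does not hold for each gene. Kcnj10 and Kcnj16, whose products form the inward rectifier of astrocytes, were among the highest rises. Kcnj10 had 119, 101, 117 and 101 CPM in WT layer 5 and 12.3, 11.97, 10.9 and 11.9 CPM in WT layer 6 libraries, 9.26-fold higher (edgeR adjusted p = 3.07e-15). Kcnj16 had 35.4, 37.2, 37.5 and 38.9 CPM in WT layer 5 and 0.957, 0.895, 1.13 and 0.904 CPM in WT layer 6 libraries, 37.96-fold higher (adjusted p = 1.78e-16). Kcnk13, a leak channel gene known from microglia, averaged 2.68 ± 0.315 CPM in layer 5 and 0.666 ± 0.125 CPM in layer 6 (SD, n = 4 each; edgeR adjusted p = 1.30e-07). What part these cells have in the difference of any member was not tested.

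Kcnj6 and Kcnj9 encode subunits of the G-protein-gated channel that is known for carrying slow inhibition of neurons. Kcnj6 had 27.9, 28.9, 27.2 and 28.2 CPM in WT layer 5 and 2.23, 1.28, 1.81 and 1.54 CPM in WT layer 6 libraries. No library came near the other group, and the level was 16.1-fold higher in layer 5 (edgeR adjusted p = 5.96e-14). Kcnj9 averaged 16.4 ± 1.15 CPM in layer 5 and 3.85 ± 0.519 CPM in layer 6 (SD, n = 4 each; edgeR adjusted p = 2.81e-11). Kcnj3, the subunit shared by most such channels of neurons, was lower in layer 5, at 12.9 ± 0.876 CPM in layer 5 and 18.1 ± 0.203 CPM in layer 6 (edgeR adjusted p = 2.18e-06). Kcnj11 and Abcc8 were lower too, at log2 fold changes of -0.89 ± 0.064 and -1.29 ± 0.067 (edgeR adjusted p = 6.29e-09 and 1.17e-10), and so was the strong inward rectifier gene Kcnj2, at -0.90 ± 0.057. In all, 7 of 13 Kcnj genes were higher and 5 lower.

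Each of the 8 Kcnh genes passed the threshold, 6 of them higher in layer 5 and 2 lower. Of all genes tested 85.5% passed it, 42.2% higher and 43.4% lower, so a full set of calls is near the background. The same shares stand beside the counts of the other subfamilies in this comparison. The ether-à-go-go genes Kcnh1 and Kcnh5 were 5.64-fold and 4.16-fold higher, and the ELK gene Kcnh3 had 138, 139, 141 and 135 CPM in WT layer 5 and 34.95, 31.97, 32.6 and 31.6 CPM in WT layer 6 libraries. The edgeR adjusted p of these 3 was 4.48e-12 or less, and none of their groups overlapped. Kcnh8 and Kcnh2 were the 2 lower genes, at log2 fold changes of -1.001 ± 0.11 and -0.42 ± 0.067 (edgeR adjusted p = 4.47e-07 and 3.95e-05). All 5 Kcnq genes were higher, from Kcnq5 at 0.08 ± 0.031, lost in 12 of 21 other settings, to Kcnq1 at 1.73 ± 0.22 on the log2 scale. Kcnq3 averaged 74.2 ± 1.64 CPM in layer 5 and 30.8 ± 2.04 CPM in layer 6 (SD, n = 4 each; edgeR adjusted p = 1.13e-12). Kcnq1 overlaps the RNA gene Kcnq1ot1 on the other strand, and reads of both cannot be told apart, since the sources used here do not say whether the counting used strand.

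Kv alpha genes differed one by one. Kcna2 had 83.2, 77.7, 82.01 and 76.97 CPM in WT layer 5 and 25.4, 23.6, 23.8 and 23.9 CPM in WT layer 6 libraries, 3.297-fold higher (edgeR adjusted p = 1.25e-14), while Kcna3 and Kcna4 were lower and Kcna1, Kcna5 and Kcna6 were not called. Of 8 modifier genes tested 5 were higher and 1 lower. Of the Kv2 genes Kcnb2 was 1.32-fold lower in layer 5 (edgeR adjusted p = 1.99e-05). Of the Kv3 genes Kcnc2 was lower, a call lost in 9 of 21 other settings, and Kcnc1 and Kcnc4 were higher, Kcnc4 at 18.98 ± 1.52 CPM in layer 5 and 4.95 ± 0.8099 CPM in layer 6 (SD, n = 4 each; edgeR adjusted p = 1.52e-10). In the Kv4 group Kcnd2 was 1.14-fold higher (edgeR adjusted p = 0.000325) and Kcnd1 and Kcnd3 were not called. All 4 Kcnip genes were higher, Kcnip2 at 79.8 ± 1.93 CPM in layer 5 and 29.1 ± 1.04 CPM in layer 6 and Kcnip3 at 92.6 ± 2.25 CPM in layer 5 and 34.8 ± 2.24 CPM in layer 6 (SD, n = 4 each; edgeR adjusted p = 2.97e-14 and 2.69e-13). Dpp6 was 2.04-fold lower in layer 5 (edgeR adjusted p = 2.06e-12).

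The leak channel gene Kcnk1 was among the clearest falls in layer 5. It had 12.9, 13.9, 12.3 and 14.4 CPM in WT layer 5 and 32.5, 32.7, 30.6 and 30.4 CPM in WT layer 6 libraries, 2.37-fold lower with no overlap (edgeR adjusted p = 3.03e-11). Of 3 calcium-activated Kcnn genes tested 2 were higher and 1 lower, and of 4 Kcnma, Kcnt and Kcnu genes 3 were higher. Of 10 Kcnk genes 7 were higher and 3 lower, and the mechanosensitive channel gene Kcnk4 was 9.67-fold higher at a low level, 3.05 ± 0.644 CPM in layer 5 and 0.311 ± 0.0973 CPM in layer 6. Kcnma1 and its brain auxiliary subunit gene Kcnmb4 were 2.41-fold and 1.53-fold higher, whereas Kcnmb2 was 1.902-fold lower (edgeR adjusted p = 1.74e-13, 3.13e-10 and 1.74e-07). Kcnab2, a beta subunit of Kv1 channels, averaged 64.5 ± 2.02 CPM in layer 5 and 24.4 ± 2.31 CPM in layer 6 (SD, n = 4 each, edgeR adjusted p = 5.12e-12). Kcne1l, a single-span auxiliary subunit gene also known as Kcne5, averaged 52.03 ± 1.36 CPM in layer 5 and 9.59 ± 1.04 CPM in layer 6 (SD, n = 4 each, edgeR adjusted p = 4.54e-14). Of 30 partner genes tested 20 were higher and 9 lower in layer 5, or 96.7% called, beside 85.5% of all genes. The axonal adhesion gene Cntn2 was at 75.2 ± 1.62 CPM in layer 5 and 1000.0 ± 18.3 CPM in layer 6 (SD, n = 4 each; edgeR adjusted p = 1.65e-19), and the scaffold gene Ank3 was 2.11-fold higher (adjusted p = 5.47e-14).

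**Figure D4:**
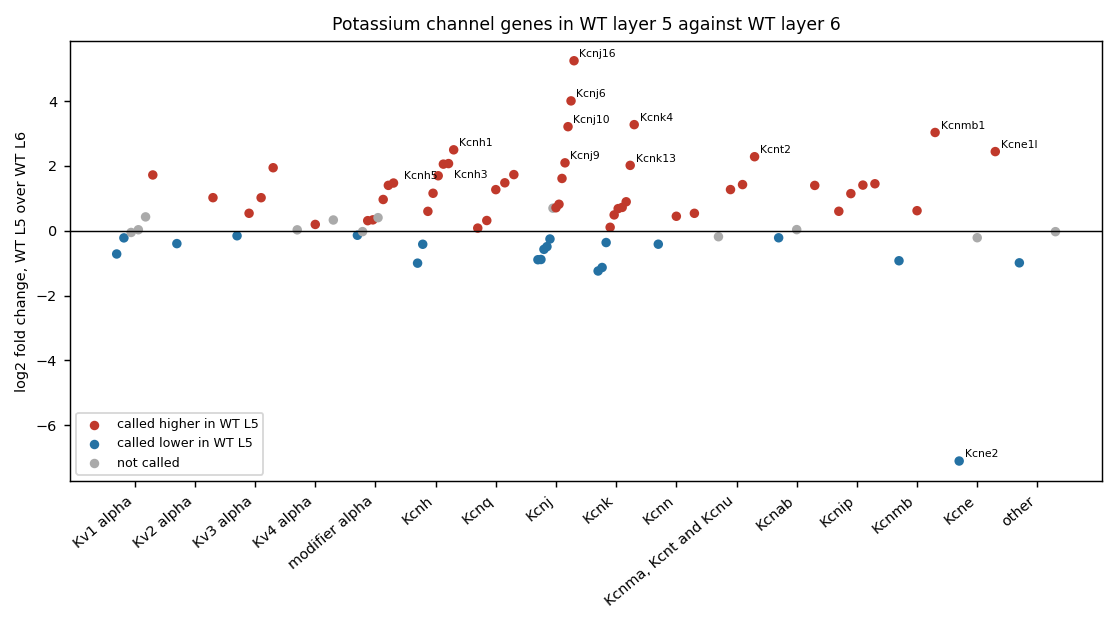
Log2 fold change of WT layer 5 over WT layer 6 (vertical axis) for the 81 potassium channel genes tested, by subfamily; red points were called higher in layer 5, blue points called lower and grey points not called, and genes at 2 units or more are named. Kcnj16 stands highest at 5.25, and the fitted value of Kcne2 rests on 0 or 1 counts in each layer 5 library.

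Kcne2 differed widely between libraries of the same group. It had 7.44, 7.26, 0.0487 and 0.0474 CPM in null layer 6, 0, 0.0293, 0 and 0.0369 CPM in WT layer 5 and 1.48, 1.97, 3.403 and 3.20 CPM in WT layer 6 libraries. Null replicates 1 and 2 were thus the highest of the 12 libraries, null replicates 3 and 4 near the layer 5 libraries, and WT layer 6 in between. Kcne2 is known for its high level in the choroid plexus, the secretory epithelium of the ventricles, and the sum of 9 markers of it, listed after these values had been seen, followed the same order. The sum was 954 and 980 CPM in null replicates 1 and 2, 17.8 and 17.2 CPM in null replicates 3 and 4, 15.8 to 17.1 CPM in WT layer 5 and 216 to 601 CPM in WT layer 6. Ttr, the carrier protein that this epithelium secretes, reached 920.3 CPM in null and made up most of the sum where it was high, and the markers Kl and Prlr did not follow that order. Kcnj13, an inward rectifier gene of the same epithelium, had 2.501, 2.22, 0.779 and 0.996 CPM in null layer 6, 1.27, 1.23, 1.298 and 1.14 CPM in WT layer 5 and 1.96, 1.13, 2.23 and 1.95 CPM in WT layer 6 libraries. Neither gene was called between null and WT layer 6. With null replicates 1 and 2 alone 31 members were called, beside 14.8% of all genes, and with null replicates 3 and 4 alone 23, beside 13.1%, of which 9 were higher against the 15 with all libraries. The part of choroid plexus RNA in these counts was not tested.

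**Figure D5:**
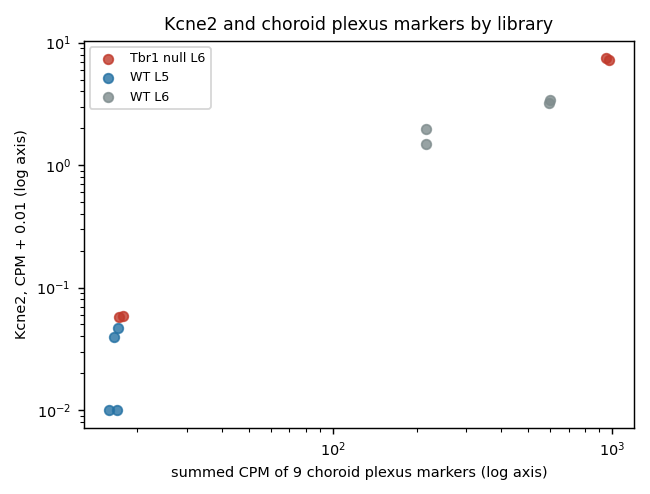
Kcne2 level (CPM + 0.01, vertical log axis) against the summed CPM of 9 choroid plexus markers (horizontal log axis) in the 12 libraries, coloured by group. Null replicates 1 and 2 sit at the top right, WT layer 6 libraries below them, and null replicates 3 and 4 with the layer 5 libraries at the bottom left; no correlation is given, since the libraries fall into clusters.

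Null layer 6 and WT layer 5 were also set against each other. This comparison shares its libraries with the comparisons above and its layers differ in batch. Of 82 members tested 22 were called higher in null, 50 lower and 10 not called, or 87.8% called, where 84.3% of all 15013 genes passed that limit, 42.4% higher and 41.8% lower. Libraries of the groups did not overlap for 67 of the 82, beside 79.9% of all genes. The median log2 fold change of the members tested was -0.522, beside -0.003 over all genes. Among the members called, Kcnj16 and then Kcnh1 stood furthest below layer 5, Kcnh1 at 16.2-fold lower (edgeR adjusted p = 1.18e-16). Kcnj16, Kcnj6 and Kcnj10 were 28.5-fold, 13.3-fold and 8.61-fold lower in null (edgeR adjusted p of 2.64e-15 or less). All 12 astrocyte, 10 oligodendrocyte lineage, 9 microglia and 9 vascular markers were lower in null as well, the astrocyte sum being 1085 to 1159 CPM in null and 5601 to 5618 CPM in layer 5, and their part in these differences was not tested. Higher in null layer 6 than in layer 5 were Kcnk1 at 1.24 ± 0.059, Kcnj11 at 1.16 ± 0.054, Kcnj2 at 0.92 ± 0.050 and Kcnb2 at 0.60 ± 0.056 on the log2 scale (edgeR adjusted p of 8.76e-08 or less). Abcc8 was with 29.4 ± 2.27 CPM in null and 8.47 ± 0.573 CPM in layer 5 (SD, n = 4 each; edgeR adjusted p = 2.83e-12).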

How the data were processed

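RNA was taken from about 25000 sorted cells per sample and made into ribosomal-RNA-depleted, stranded total RNA libraries, per the labels' protocols. The authors deposited raw counts per gene of the 12 RNA libraries, and the submitters' processing notes name STAR 2.5.2b, HTSeq and the mouse build mm9. The gene annotation and whether the counting used strand are not given in those sources. The second deposited table holds rounded normalized scores, which were used only to compare directions on log2(score + 1): in null against WT layer 6 all 28 members called had the same sign, in layer 5 against WT layer 6 66 of 68 and in null against layer 5 68 of 69. The ChIP-seq samples were not used here.

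Counts were filtered with filterByExpr by group, TMM-scaled and tested per pair of groups with edgeR 4.0.16 (R 4.3.3), glmQLFit and glmQLFTest, with Benjamini-Hochberg adjustment over all genes tested. SE is the absolute log2 fold change divided by the square root of F. Alternatives used DESeq2 1.42.0, limma 3.58.1 with voom, other scalings and filters, summed pairs, replicate blocks and left-out libraries. The scripts were tested on simulated counts. Totals of 27465597 to 54899002 counts left 15 to 16 of the 97 members under the filter. Kcnq1, Kcnd3 and Kcnmb4 each share their locus with an antisense RNA gene of the family, and their counts are uncertain for that reason.

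The members and lists were chosen with earlier results of these data known, and the choroid plexus list after its values were seen. Genes named were, per comparison, the 10 called members with the smallest adjusted p in each direction, per subfamily the member with the highest level and the called member with the greatest change, and 5 partner genes. The others were chosen after their values were seen. In null against WT layer 6 these were Dpp6, Kcnab1, Kcnd1, Kcne2, Kcnh2, Kcnh4, Kcnh5, Kcnh8, Kcnip4, Kcnn3, Kcnq5 and Kcnt1. In layer 5 against WT layer 6 they were Abcc8, Dpp6, Kcna1, Kcna4, Kcna5, Kcnc2, Kcnd1, Kcnh2, Kcnh5, Kcnj9, Kcnk13, Kcnq3 and Kcnq5. In null against layer 5 it was Abcc8, and Kcnd3 and Kcnj13 were chosen in the same way. Genes of the outlier check and of the check of signs in the normalized scores were named by those checks. Values of some genes are not reported here.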

Additional observations from a re-analysis of the deposited data

Results flagged for a closer look

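In 8 of 249 gene and group combinations of 4 libraries, 1 library stood apart from the other 3 by more than Dixon's criterion at the 95% level; chance flags about 1 in 20 groups. In null layer 6, Kcnma1 had 39.5 CPM in replicate 1 and 37.8 to 38.1 CPM in the others. In WT layer 5, Kcnab1 had 14.2 CPM in replicate 4 and 16.4 to 16.6 CPM in the others, Kcnj8 had 16.8 CPM in replicate 4 and 13.1 to 13.3 CPM in the others, and Kcnmb1 had 1.29 CPM in replicate 2 and 0.487 to 0.587 CPM in the others. In WT layer 6, Kcnd2 had 66.9 CPM in replicate 3 and 63.1 to 63.4 CPM in the others, and Kcnj12 had 6.53 CPM in replicate 4 and 5.21 to 5.26 CPM in the others. Kcnk9 had 1.79 CPM in WT layer 6 replicate 2 and 2.98 to 3.20 CPM in the others, and Kcnmb4 had 33.9 CPM in replicate 4 and 36.0 to 36.2 CPM in the others. Of these genes only Kcnd2 was called between null and WT layer 6, and its call held without that library.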

How the results depend on the processing

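No called member or named partner gene changed direction in any setting of the count fits. In the deposited normalized scores the called members Kcnh4 and Kcns3 (layer 5 against WT layer 6) and Kcnc2 (null against layer 5) had the other sign; the cause was not tested. Of 34 members and named partners called between null and WT layer 6, 10 kept their call in every setting: the 7 members named above with Abcc8, Cntn2 and Dpp10. For WT layer 5 against WT layer 6 it was 67 of 79, and for null layer 6 against WT layer 5, 73 of 82. In null against WT layer 6, summed pairs (3.15% of all genes called) left 3 members higher and 4 lower, against 15 and 13 with single libraries, and limma with a random block for the pair (8.75%) left 7 lower. With null replicates 3 and 4 alone, a setting added after the values were seen, 9 were higher. Leaving out 1 library at a time gave 23 to 27 calls, beside 11.1% to 12.5% of all genes. Same-numbered libraries did not deviate together over genes: the correlation of their deviations from the group means was -0.08 to 0.024. A pairing by number with a small effect would not show in this check, so it is neither shown nor excluded. With the replicate number as a block, 12 members were higher and 9 lower in null against WT layer 6, and the counts of 49 and 20, and of 22 and 50, were as without it in the comparisons with layer 5. Among called members of low level, Kcnh6, Kcnj5 and Kcna5 each lost their call in 3 or more settings, and Kcng1 in 1. Members of higher level lost calls too, Kcnq5 and Kcnk3 in 13 of 21 settings and Kcnt1 in 11. The cause was not tested.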

Other observations

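Some members differed more between pairs of libraries of a group than between groups. Kcnn1, a small-conductance calcium-activated channel gene, had 23.4, 27.6, 26.7 and 23.9 CPM in null layer 6, 38.04, 34.1, 38.6 and 35.2 CPM in WT layer 5 and 16.9, 17.9, 32.9 and 31.9 CPM in WT layer 6 libraries. The WT layer 6 pairs thus stood on either side of the null libraries. Kcnq1ot1, an imprinted long RNA gene, had 49.96, 48.5, 29.2 and 27.9 CPM in null layer 6, 36.8, 36.7, 36.3 and 35.1 CPM in WT layer 5 and 38.3, 37.3, 34.6 and 37.2 CPM in WT layer 6 libraries. Null replicates 1 and 2 were the high pair there, as they were for Kcne2. Neither Kcnn1 nor Kcnq1ot1 was called between null and WT layer 6 with all libraries. Kcnq1ot1 and Kcne2 were each called with null replicates 1 and 2 alone, where they were higher than in WT layer 6, and with null replicates 3 and 4 alone, where they were lower.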
